A study of Mus musculus with 7 samples.

Results

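Cells of the embryonic mouse nose that carried at least 2 of the transcripts Aldh1a2, Cldn11 and Rarb were examined against the other mesenchyme of the same noses. Mesenchyme is the loose connective tissue that fills the face and gives rise to cartilage, bone, dermis and the coverings of the brain. A cell counted as a member when it held at least 1 UMI (unique molecular identifier, 1 per captured transcript) of at least 2 of the 3 genes. It also needed at least 1 UMI of the collagen genes Col1a1 or Col3a1. It had to have 0 UMIs of Epcam (epithelium), Pecam1 (endothelium), Sox10 (glia), Acan (cartilage) and Sp7 (bone). Cells with fewer than 500 genes or more than 10% mitochondrial UMIs were left out. Of 31465 kept cells, 2188 were members and 17595 were other mesenchyme, which met the same conditions but carried fewer than 2 of the 3 markers.

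The study measured whole noses at embryonic day 14.5 by droplet single-cell RNA sequencing. The 5 libraries labelled WT came from CD1 IGS mice, whose labels give no transgene; the protocol speaks of 5 such noses. The other 2 libraries came from 1 nose carrying ProKR2iCre and R26tdTomato, in which Cre driven from Prokr2 turns on a red reporter; 1 of them was sorted for cells and the other was not. The labels do not say which is which, so they are given singly as Prokr2Cre libraries 1 and 2. WT replicates 3 and 4 shared 7386 barcodes, while no other pair shared more than 34, and replicate 3 was left out. The 4 WT captures that remained, replicates 1, 2, 4 and 5, are the replicates of every test, and their values are given in that order. The labels do not tie each library to its own nose, so the p-values measure the spread between captures. The median depth of kept cells ranged from 5126.5 UMIs in WT 2 to 13692 in Prokr2Cre 1. Levels are CPM, the UMIs of a gene in a class divided by all UMIs of that class in a library and scaled to a sum of 1000000.

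Aldh1a2 makes retinoic acid from retinaldehyde, Rarb is a nuclear receptor for retinoic acid whose own gene is switched on by that ligand, and Cldn11 is a claudin, a strand protein of tight junctions. The 3 genes are known together from the meninges, the layered membranes (dura, arachnoid and pia) around the brain. Fetal meninges supply retinoic acid to the cortex, depend on the forkhead factors Foxc1 and Foxc2, and seal the arachnoid with tight junctions that contain Cldn11. Retinoic acid also patterns the facial and nasal mesenchyme, so each of the 3 genes can occur in tissue that is not meningeal. In this pathway Stra6 brings in retinol, Rdh10 and Dhrs3 pass it back and forth with retinaldehyde, the Aldh1a enzymes make the acid, Crabp1 and Crabp2 bind it in the cytoplasm, and the Cyp26 enzymes break it down.

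Members made up 12.4%, 11.2%, 9.07% and 16.3% of the mesenchyme in WT 1, 2, 4 and 5, a mean of 12.2% ± 3.04 (SD, n = 4). They were 7.71% ± 1.72 (SD, n = 4) of all kept WT cells. Prokr2Cre 1 held 58 members, 5.40% of its mesenchyme (exact Clopper-Pearson 95% interval 4.12 to 6.92), and Prokr2Cre 2 held 54, 9.94% (7.56 to 12.8). These intervals and those that follow cover counting error only. The share depends on depth, since a deeper cell shows more of its transcripts. The median depth of members was 9385.5, 5796, 6285 and 12648.5 UMIs in the WT captures, against 7995.5, 4558, 5439 and 10882 in other mesenchyme. After each cell was thinned to 3000 UMIs, members were 5.13% ± 1.11 (SD, n = 4) of WT mesenchyme.

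The rule fixed the levels of the 3 markers, which are given as a description. Aldh1a2 stood at 247.5 CPM ± 16.7 in WT members and 18.3 ± 7.07 in other mesenchyme, Cldn11 at 138 ± 28.5 and 5.20 ± 3.17, and Rarb at 272 ± 120 and 50.7 ± 24.1 (SD, n = 4 each). Only 431 of the 2076 WT members, 20.95% ± 1.10 per capture, carried all 3 genes. The largest class, 911 cells or 44.6% ± 5.30, carried Aldh1a2 and Rarb with 0 UMIs of Cldn11. A further 522 cells carried Cldn11 and Rarb only, and 212 carried Aldh1a2 and Cldn11 only. The name Aldh1a2 Cldn11 mesenchyme therefore covers, for the most part, cells in which 1 of the 3 genes was not seen. How often the 3 genes met in 1 cell is part of the same description. In mesenchyme thinned to 3000 UMIs, Aldh1a2 and Cldn11 were found together 3.12 ± 0.911 times as often as the product of their frequencies, Cldn11 and Rarb 2.597 ± 0.561 times and Aldh1a2 and Rarb 2.07 ± 0.249 times (SD, n = 4).

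Members just inside the rule, with exactly 2 marker UMIs, were 18.1% ± 5.15 of WT members (SD, n = 4). Just outside it, 4392 WT mesenchyme cells carried 1 of the 3 genes, with a median of 1 marker UMI in every capture. The same markers were counted in other cell types. Among epithelial cells, those with at least 3 UMIs of Epcam, 2.24% ± 0.373 (SD, n = 4) carried 2 or more of the markers at a median depth of 11898 UMIs averaged over captures, below the 12.2% of the mesenchyme. Rarb alone was in 26.1% ± 7.95 of these cells and in 28.3% ± 9.28 of the mesenchyme, whereas Cldn11 was in 3.44% ± 0.251 and 9.06% ± 2.63. Aldh1a2 was in 1.72% to 4.65% of the epithelial cells and in 11.1% to 19.0% of the mesenchyme of the 4 captures. Among the few endothelial cells, chosen in the same way by Pecam1, 5 of 78 carried 2 or more markers in WT 1 (6.41%, exact interval 2.11 to 14.3), 0 of 35 in WT 2, 0 of 22 in WT 4 and 1 of 18 in WT 5 (5.56%, 0.141 to 27.3). The upper bounds for WT 2 and WT 4 were 10.0% and 15.4%, so in WT 1, WT 4 and WT 5 the endothelial interval reached the member share of the mesenchyme. Free RNA was not measured, and its part in these shares was not tested. A further 420 WT cells with 2 markers and collagen were removed by the exclusion genes, 233 WT cells with 2 markers having Epcam.

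Test genes were compared between members and other mesenchyme with edgeR's quasi-likelihood test on UMIs summed per capture and class, with the capture as a block. The 10 genes of the rule were not tested. Of 14929 genes, 1145 were higher in members (7.67%) and 1044 lower (6.99%) at a Benjamini-Hochberg adjusted p below 0.05. Leaving out WT 2 reduced these to 679 and 523, and leaving out WT 4 to 752 and 604. The median log2 fold change of all genes was -0.02. All adjusted p-values below come from this test unless another is named. In such sums, more cells with a transcript and more of it per cell cannot be told apart. The lists of genes were chosen with earlier results of these data known and are described by counts beside these background shares.

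Retinoic acid genes other than the markers moved in both directions. Of 8 tested genes of the list for synthesis and uptake, 4 were higher (among them Stra6, Dhrs3 and Aldh1a3), 1 was lower (Crabp1) and 3 did not pass, beside a background of 7.67% higher and 6.99% lower. Of 2 tested genes of breakdown, Cyp26b1 was lower and Cyp26a1 did not pass.

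Stra6, the membrane receptor that takes retinol from its plasma carrier, had 31.2, 42.3, 33.1 and 31.0 CPM in members and 5.35, 10.8, 4.47 and 6.29 in other mesenchyme. Every member value was above every comparison value (log2 fold change 2.34 ± 0.13, SE, adjusted p = 8.94e-06). Aldh1a3, a second enzyme that makes retinoic acid, had 25.3, 51.2, 58.5 and 37.3 CPM against 11.3, 13.4, 11.7 and 7.74 (1.86 ± 0.17, adjusted p = 0.000106). Dhrs3, which turns retinaldehyde back into retinol, had 26.5, 41.1, 36.8 and 45.9 CPM against 13.7, 15.4, 12.9 and 13.7 (1.35 ± 0.13, adjusted p = 0.000117). None of these 3 genes overlapped between the classes. Rdh10 had 18.3 ± 6.09 and 14.4 ± 1.43 CPM and did not pass (adjusted p = 0.313). Aldh1a1 was nearly absent, with 14 UMIs in all WT members.

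Among binding proteins, Crabp1 fell, from 348, 640.4, 527 and 456 CPM in other mesenchyme to 239.7, 264, 185 and 219 in members (log2 fold change -1.15 ± 0.13, adjusted p = 0.000288). Crabp2 was alike in level, 180.2 ± 52.1 and 195 ± 25.7 CPM, and did not pass (-0.19 ± 0.11, adjusted p = 0.299). Cyp26b1, which clears retinoic acid, fell from 24.6, 42.8, 70.8 and 53.2 CPM to 13.5, 13.8, 20.1 and 20.2, again without overlap (-1.49 ± 0.13, adjusted p = 7.69e-05). Cyp26a1 was scarce, at 1.89 ± 1.33 and 1.19 ± 1.40 CPM, and did not pass. Cyp26c1 had 0 UMIs in members of the 4 WT captures and 1 in other mesenchyme. Both Prokr2Cre libraries showed the same order for Stra6, Dhrs3, Aldh1a3, Crabp1 and Cyp26b1. Cyp26b1, for example, had 16.5 and 10.4 CPM in their members and 110.2 and 104 in their other mesenchyme.

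Of 7 tested nuclear receptors, 2 rose and 1 fell. Nr2f1 and Nr2f2, orphan receptors whose genes respond to retinoic acid, were higher at 133 ± 34.1 against 57.7 ± 8.72 CPM (1.14 ± 0.16, adjusted p = 0.00114) and 208 ± 96.7 against 49.2 ± 12.7 CPM (1.95 ± 0.11, adjusted p = 9.41e-06). Neither gene overlapped between the classes. Rarg was lower, at 52.0 ± 12.1 against 63.1 ± 8.75 CPM (-0.35 ± 0.09, adjusted p = 0.0267), with overlapping values, and Rara, Rxra, Rxrb and Rxrg did not pass.

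**Figure D1:**
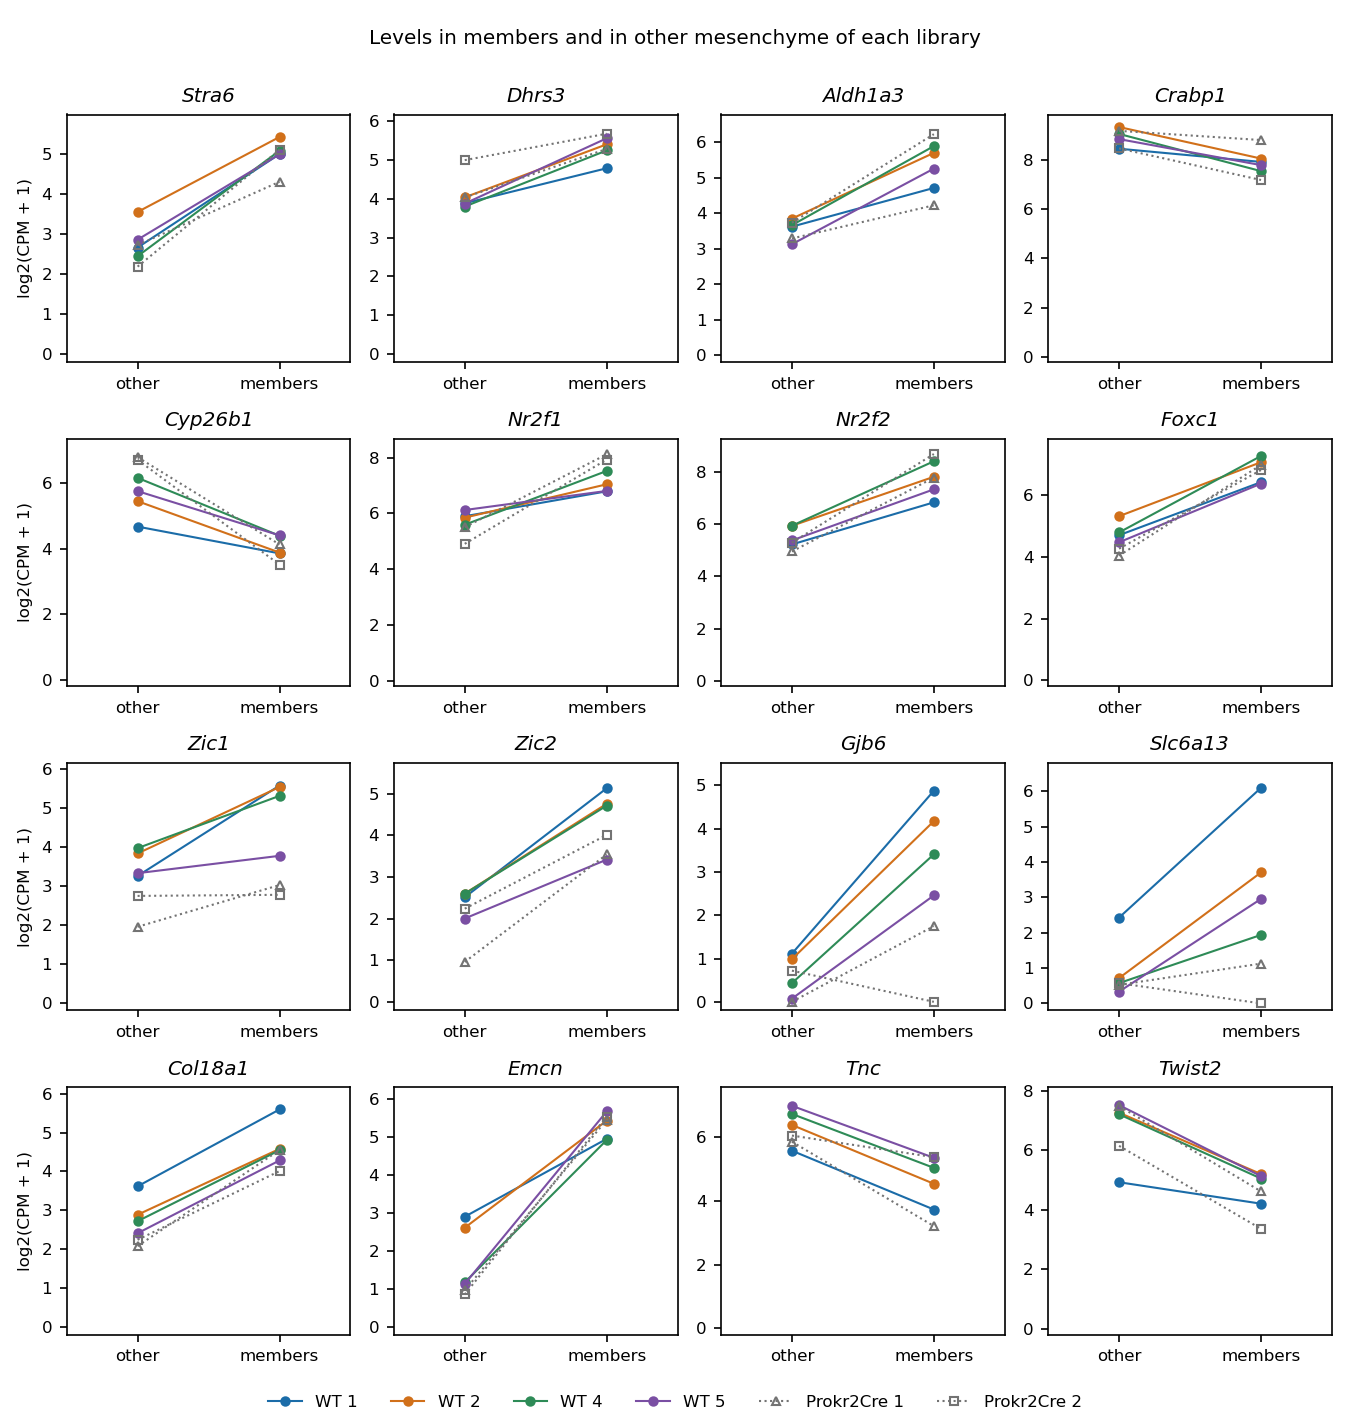
Level of 16 genes in other mesenchyme (left of each panel) and members (right), as log2(CPM + 1) on the vertical axis, with 1 line per library: filled circles are the 4 WT captures, open symbols with dotted lines the 2 Prokr2Cre libraries. Stra6, Dhrs3, Aldh1a3, Nr2f1, Nr2f2, Foxc1, Zic2, Col18a1 and Emcn rise and Crabp1, Cyp26b1, Tnc and Twist2 fall in all 6 libraries, while Gjb6 and Slc6a13 differ widely between libraries and fall to 0 CPM in members of Prokr2Cre 2.

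A pair of promoters of the pathway holds letters that match the element through which retinoic acid receptors act. They are shown here because Rarb is 1 of the 3 defining genes. Windows of the 250 bases before the start of 17 of 21 pathway genes, 32 in all, were taken from RefSeq (GRCm38.p6). They were searched on both strands for direct repeats of 6-base motifs spaced by 5 or 2 bases. A first search with motifs of 5 bases, GGTCA or GTTCA, at the same spacings had found 0 of 32 windows, beside 0.161% and 0.317% of all 32851. The motif could read AGGTCA or it could read GGGTCA, and further forms were AGTTCA along with GGTTCA. The longer form was chosen after that, because the shorter one counts the spacing differently. With it, 2 of 32 windows (6.25%) held a repeat spaced by 5, beside 0.0883% of all 32851 windows, and 0 of 32 held a repeat spaced by 2, beside 0.174%. The matches are in capitals, each with up to 30 bases on either side within the window, 5′ to 3′ on the gene's strand.
Rarb, chr14:16575483-16575559, minus strand, match 53 to 37 bases before the start: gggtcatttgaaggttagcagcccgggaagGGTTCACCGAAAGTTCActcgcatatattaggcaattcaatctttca
Cyp26a1, chr19:37697746-37697807, plus strand, match 32 to 16 bases before the start: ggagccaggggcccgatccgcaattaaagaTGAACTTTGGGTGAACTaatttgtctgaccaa
The Rarb window holds the repeat in the gene's direction, and the Cyp26a1 window holds it on the opposite strand. A match is a description of the letters only. The windows of Aldh1a2, Stra6, Dhrs3, Nr2f1 and Nr2f2 had no match.

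Transcription factors that mark the meninges were mostly higher in members. Of 9 tested, 7 were higher (Foxc1, Foxc2, Foxd1, Zic1, Zic2, Zic4 and Zic5), 1 was lower and Tbx18 did not pass, beside 7.67% of all genes higher. Foxc1, a forkhead factor without which the cranial meninges do not form properly, had 85.4, 134, 155 and 82.5 CPM in members and 25.1, 39.1, 26.8 and 21.3 in other mesenchyme (log2 fold change 1.95 ± 0.11, adjusted p = 9.26e-06). Zic2, a zinc-finger factor of the dorsal neural tube and meninges, had 33.9, 26.0, 25.2 and 9.67 CPM against 4.71, 5.07, 5.06 and 3.01 (2.32 ± 0.16, adjusted p = 2.44e-05). In both genes the classes did not overlap, and WT 5 held the lowest member value. Zic1 had 46.4, 45.2, 38.5 and 12.6 CPM against 8.50, 13.2, 14.6 and 8.99 (1.58 ± 0.22, adjusted p = 0.00126). It was higher in members of each of the 4 captures, but the member value of WT 5 lay below the comparison values of WT 2 and WT 4.

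Foxc2 rose by 1.59 ± 0.14 on the log2 scale, Foxd1 by 0.94 ± 0.16, Zic4 by 1.86 ± 0.25 and Zic5 by 2.26 ± 0.18. Tbx18 had 17.0 ± 7.18 and 10.8 ± 4.08 CPM and overlapped (adjusted p = 0.244). The 7 genes were called higher in each of the alternatives that kept the capture as a block, leaving out each WT capture in turn included. In the Prokr2Cre libraries Foxc1 was as high as in WT, at 126 and 113 CPM in members against 15.5 and 18.3. Foxd1 went the other way there, with 80.3 and 25.5 CPM in members against 93.9 and 92.8.

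Genes of the single meningeal layers were tested as 3 lists. For the arachnoid, whose cells form the blood to cerebrospinal fluid barrier, 7 of 11 tested genes were higher and 0 lower. For the pia, the innermost layer, 3 of 7 were higher, and for the dura, the outer fibrous layer, 5 of 6, with 0 lower in both. The dural count fell to 3 without WT 2 and without WT 4, and also with purer classes (at least 5 collagen UMIs and 0 UMIs of further genes of other cell types) and with WT 3 in place of WT 4. The arachnoid list included transporters that keep organic anions and drugs out. Slc22a6, an organic anion transporter, had 30.8, 11.8, 2.26 and 2.70 CPM in members and 1.93, 0.405, 0.105 and 0 in other mesenchyme (4.33 ± 0.32, adjusted p = 3.08e-05). Members held 76.9% of its UMIs in WT mesenchyme, with 14.7% of all UMIs. The level was low and uneven, and most of it came from WT 1 and WT 2.

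The drug pumps Abcg2 (45.2 ± 4.23 against 32.1 ± 2.69 CPM, 0.44 ± 0.07, adjusted p = 0.00246) and Abcb1a (2.24 ± 0.176 against 0.213 ± 0.191 CPM, adjusted p = 0.00249) were higher without overlap. Ptgds, the prostaglandin D synthase of the leptomeninges, had 44.2, 7.17, 0.283 and 0 CPM in members and 5.23, 0.372, 0.174 and 0.104 in other mesenchyme (3.12 ± 0.36, adjusted p = 0.000382). That call rested on WT 1 and WT 2: it was lost without WT 1, and in WT 5 the direction was the other way. Nnat, Angptl2 and Slc22a8 were the other higher genes. Nnat was higher in members of 3 of the 4 captures (adjusted p = 0.0432). In WT 5 it had 215 CPM in members and 229 in other mesenchyme. Without WT 1, 4 of 10 tested arachnoid genes were higher (Angptl2, Abcg2, Abcb1a and Slc22a6) and Dpp4 was lower. Crabp2 and Wnt6, used as early arachnoid markers, did not pass, nor did Cdh1 or Dpp4. Slc47a1, a transporter of the mature arachnoid, had 3 UMIs in all WT members and was too low to test. Of the 7 higher arachnoid genes, Ptgds, Abcb1a, Slc22a6 and Slc22a8 passed the filter on low counts only through members, as did the pial Slc6a13. These 5 had to differ once tested, so their values are a description and the arachnoid and pial counts support nothing. Angptl2, Abcg2 and Nnat, and all 5 higher dural genes, also reached the filter in other mesenchyme alone.

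Of the pial genes, Slc6a13, a GABA transporter of leptomeningeal fibroblasts, had 67.4, 12.02, 2.83 and 6.75 CPM in members and 4.37, 0.642, 0.488 and 0.260 in other mesenchyme (3.85 ± 0.23, adjusted p = 1.12e-05). Cxcl12, the chemokine that fetal meninges release to guide neurons and blood cells, had 417, 315, 253 and 332 CPM against 148, 129.8, 139 and 169 (1.10 ± 0.10, adjusted p = 7.45e-05). Lama1, a laminin of the pial basement membrane, had 21.1 ± 5.31 against 8.79 ± 2.44 CPM (1.23 ± 0.16, adjusted p = 0.000641). Cxcl12 and Lama1 did not overlap between the classes, whereas Slc6a13 was above other mesenchyme in each capture but by very different amounts. Ngfr, S100a6, Bmp6 and Bgn did not pass. The dural genes Fxyd5, Foxp1, Dkk2 and Ccn3 rose by 1.45, 0.72, 0.35 and 0.55 on the log2 scale, with overlapping values for each, and Mgp did not pass.

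Junction genes gave a mixed picture. Of 13 tested genes of tight junctions, 4 rose (among them Tjp1, Cgnl1 and F11r), 3 fell (Cldn10, Jam2 and Jam3) and 6 did not pass, among them Cldn1, Cldn3, Cldn4, Cldn7 and Cldn12. Cgnl1, a cytoplasmic scaffold of the junction, stood out at 36.3 ± 11.2 against 13.5 ± 1.05 CPM (1.34 ± 0.11, adjusted p = 5.39e-05). The 3 falls became 0 without WT 4 and 1 without WT 2 or WT 5. Of 11 genes of adhesion and gap junctions, 5 rose (Cdh5, Cdh11, Gja1, Gjb2 and Gjb6), 3 fell (Cdh2, Vcam1 and Ncam1) and 3 did not pass. Cdh5 passed the filter on low counts only through members, so it had to differ once tested and its rise is a description. Gja1, Gjb2 and Gjb6 encode connexins, which couple leptomeningeal cells through gap junctions. Gjb6 had 28.4, 17.1, 9.61 and 4.50 CPM in members and 1.16, 0.980, 0.349 and 0.0519 in other mesenchyme (4.49 ± 0.24, adjusted p = 6.62e-06). Gjb2 had 18.0, 17.1, 3.39 and 2.70 CPM against 0.857, 0.878, 0.209 and 0.208 (4.16 ± 0.23, adjusted p = 8.50e-06). Members held 79.7% of the Gjb6 UMIs and 77.1% of the Gjb2 UMIs of WT mesenchyme. Gja1 was the most abundant connexin, at 152 ± 51.1 against 61.1 ± 8.73 CPM (1.21 ± 0.16, adjusted p = 0.000916). In the Prokr2Cre libraries Gja1 was lower in members, 81.5 and 98.6 against 91.1 and 133 CPM.

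Of 28 matrix genes, 12 were higher, 4 were lower (Col6a1, Col8a1, Col12a1 and Tnc) and 12 did not pass. The higher ones included Col4a1 (0.97 ± 0.07), Col4a2 (0.86 ± 0.08), Nid1 (0.88 ± 0.07), Lama2 (0.56 ± 0.08) and Lama4 (0.65 ± 0.07), which build basement membranes, and Fn1. Col18a1, a basement membrane collagen that gives rise to endostatin, had 47.3, 22.9, 22.3 and 18.4 CPM in members and 11.3, 6.39, 5.58 and 4.31 in other mesenchyme (1.94 ± 0.10, adjusted p = 4.86e-06). Dcn, a small proteoglycan that binds collagen fibrils, had 1146, 610.4, 334 and 383 CPM against 471, 184, 116 and 263 (1.22 ± 0.15, adjusted p = 0.000595). Tnc, a matrix protein of tendon, bone and cartilage anlagen, fell from 46.9, 82.9, 106 and 126 CPM to 12.3, 22.3, 32.0 and 40.0, without overlap (-1.84 ± 0.08, adjusted p = 1.48e-06).

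All 7 tested genes of dermal fibroblasts fell, beside 6.99% of all genes lower. Twist2, a transcription factor of dermal progenitors, had 17.5, 35.9, 32.2 and 34.2 CPM in members and 29.5, 153, 148 and 183 in other mesenchyme (-1.99 ± 0.20, adjusted p = 0.00016). The difference was small in WT 1 and large in the other captures, so the ranges overlap. Lef1, a nuclear partner of Wnt signalling, fell by 1.89 ± 0.21, Dkk1 by 2.13 ± 0.21, Twist1 by 1.01 ± 0.07 and Prrx1 by 0.45 ± 0.10 on the log2 scale. Dpt and Crabp1 were the remaining 2. In 3 of the alternatives that left out a WT capture, the call of Dpt was lost and 6 of the 7 remained lower.

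Among 19 regional markers of nasal mesenchyme, 5 were higher and 10 lower, and 6 were lower without WT 4. Barx1, a homeobox factor of jaw and nasal mesenchyme, had 258, 236, 222 and 367 CPM in members and 248, 55.3, 49.9 and 81.3 in other mesenchyme (1.57 ± 0.32, adjusted p = 0.00909), nearly level in WT 1. Pax9 (0.78 ± 0.15), Foxp2 (0.81 ± 0.10) and Six2 (0.73 ± 0.11) were also higher. Shox2, Msx1, Msx2, Dlx5, Lhx8, Pax3, Pax7, Alx1, Erg and Mab21l2 were lower. Of 30 ligand genes, 5 rose (Igf1, Sema3a, Gdf10, Vegfa and Edn3) and 8 fell, beside 7.67% and 6.99% of all genes. The counts were 2 and 4 without WT 2 and 3 and 5 without WT 4. The lower ones included Wnt5a (-1.41 ± 0.24), Kitl, the ligand of the Kit receptor (-1.44 ± 0.18), and the axon guidance cue Ntn1 (-1.04 ± 0.24).

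By the rule for naming genes outside the lists, the highest fold changes among genes of at least 50 CPM belonged to Crym and Itgbl1. Crym, which binds thyroid hormone, had 138, 114, 84.3 and 95.8 CPM in members against 35.03, 20.3, 8.69 and 9.66 (2.63 ± 0.20, adjusted p = 3.63e-05). Itgbl1, an integrin-like secreted protein, had 28.7, 107, 139 and 99.9 CPM against 9.06, 17.1, 11.8 and 19.4 (2.56 ± 0.22, adjusted p = 7.69e-05). The classes did not overlap for either gene. Vtn (2.24) came next, at 152, 48.1, 5.09 and 10.6 CPM against 17.6, 7.23, 4.57 and 5.40, so that WT 1 and WT 2 held most of it and WT 4 was nearly level. Itih5 (1.86), Tmem37 (1.78), Apod (1.76), Nupr1 (1.72), the Wnt inhibitor Sfrp1 (1.72), the activin antagonist Fst (1.68) and the neurotrophin receptors Ntrk3 (1.64) and Ntrk2 (1.64) followed, with Akap12 (1.63) and Sned1. The classes overlapped for Vtn, Nupr1 and Ntrk3. The largest falls were in the bone sialoprotein gene Ibsp (-6.26), the chemokine Cxcl14 (-3.51), Cpa6 (-3.51), Vgll3 (-2.66), the Wnt inhibitor Apcdd1 (-2.52), the embryonic globin Hbb-y (-2.52), the Bmp antagonist Sostdc1 (-2.46), Stmn2 (-2.35), Pantr1 (-2.29) and Cacna2d3 (-2.13), of which Cpa6, Vgll3, Apcdd1, Hbb-y and Cacna2d3 overlapped. Cells with Sp7 were removed from both classes, yet Ibsp still had 596, 103, 65.2 and 32.3 CPM in other mesenchyme and at most 6.75 in members.

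Markers of other cell types were checked in the same test. Epithelial markers gave 0 of 7 tested higher and 0 lower, with summed levels of 9.61 to 34.1 CPM in members and 10.9 to 27.5 in other mesenchyme. At an unadjusted p below 0.05, edgeR had 1 of the 7, beside 27.8% of all genes. Glial markers gave 0 of 6 in either direction, and 2 at an unadjusted p below 0.05. Neuronal (5 of 6), immune (4 of 6), muscle (3 of 4), erythroid (4 of 7), bone (3 of 5) and cartilage (1 of 6) markers were lower and none of these was higher. The 3 muscle genes and the immune gene Lyz2 passed the filter on low counts only through other mesenchyme. Several of these counts rest on single captures. Without WT 1, 1 immune and 0 muscle markers were lower, without WT 2, 2 immune, and without WT 4, 2 erythroid. DESeq2 called 1 immune marker lower. With classes from which cells carrying further genes of other cell types were removed, 0 of 2 muscle and 0 of 6 erythroid markers still tested were lower. Cartilage markers went the other way, with 4 lower without WT 5 and 5 with cells chosen after thinning, but 1 was higher without WT 2. Of 4 endothelial markers, Emcn, Cdh5 and Kdr were higher, Cdh5 passing the filter only through members. Emcn, a sialomucin of endothelium, had 29.8, 41.9, 29.1 and 49.7 CPM in members against 6.46, 5.10, 1.26 and 1.19 (3.41 ± 0.39, adjusted p = 0.000353), although Pecam1 was at 0 in both classes by the rule. Esam did not pass. Of 8 mural markers, Kcnj8 (0.64) and Abcc9 (1.36) rose and Cspg4 (-0.59) fell. With all 3 markers required of a member, Kcnj8 turned to -0.70 and neither it nor Abcc9 was called. The calls of Kcnj8 and Cspg4 were also lost without WT 2, and that of Cspg4 without WT 1 or WT 4.

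Immediate early and heat shock genes, which also rise when tissue is dissociated, were higher in members for 9 of 10. Fos had 1098 ± 301 against 641 ± 218 CPM (0.74 ± 0.11, adjusted p = 0.00148) and Atf3 88.8 ± 61.5 against 48.0 ± 47.9 (1.00 ± 0.15, adjusted p = 0.00189). Their part in the other differences was not tested. None of 17 cell cycle genes passed in edgeR or DESeq2 in either direction, and 3 had an unadjusted p below 0.05 in edgeR. With comparison cells matched for depth, and with cells chosen after thinning, 11 of the 17 were lower.

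**Figure D2:**
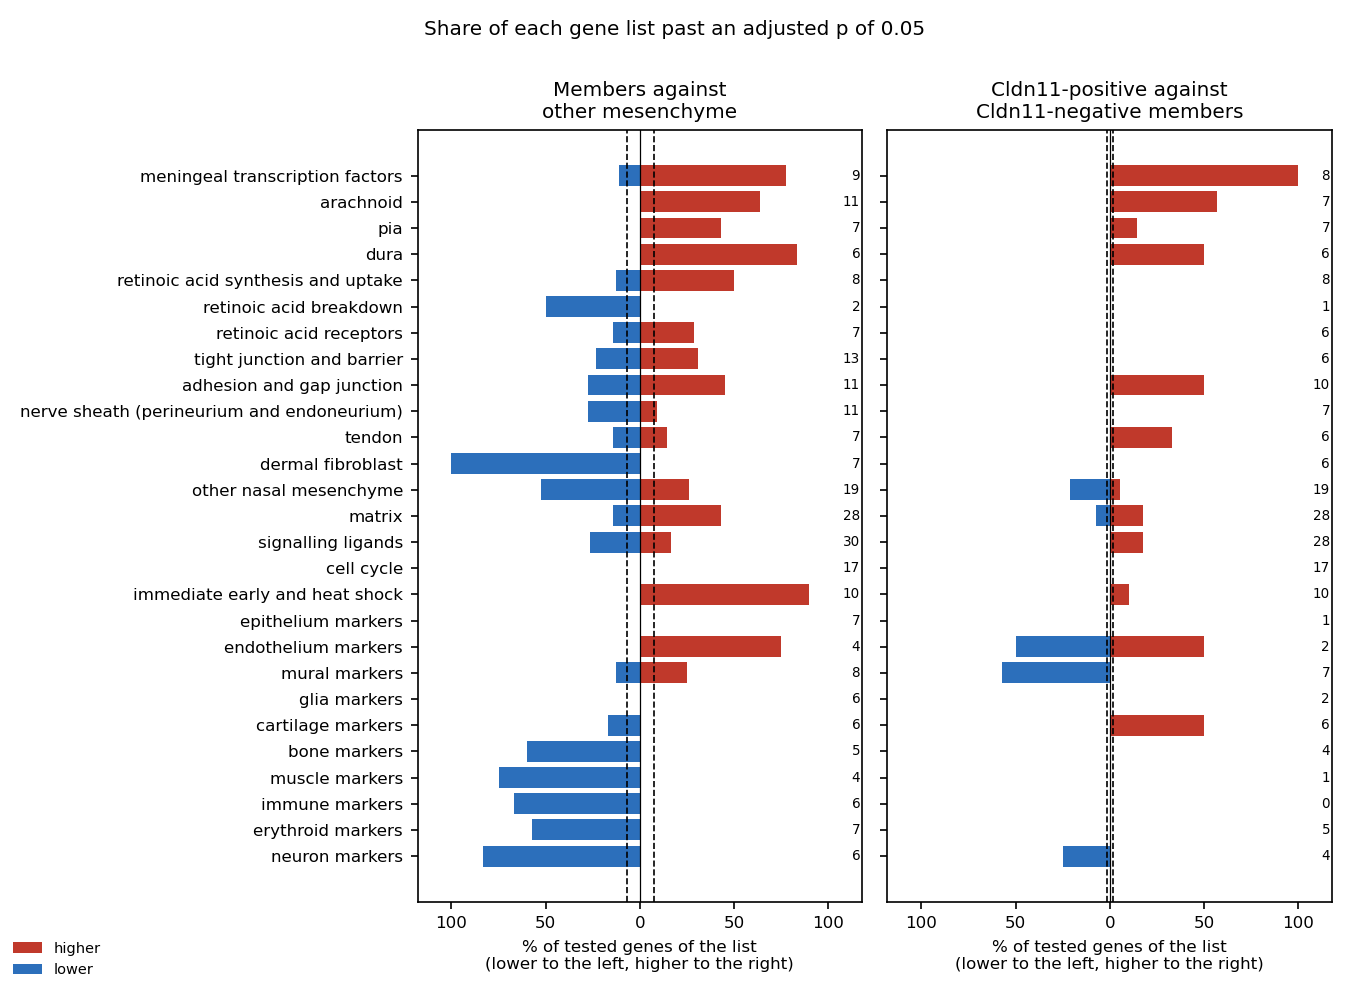
Share of the tested genes of each list that were higher (red, to the right) or lower (blue, to the left) at an adjusted p below 0.05, in members against other mesenchyme and in Cldn11-positive against Cldn11-negative members; the number at the right of each row is the genes tested, and dashed lines mark the share of all genes. In the left panel meningeal transcription factors stand at 7 of 9 higher and dermal fibroblast genes at 7 of 7 lower. In the right panel the 8 tested meningeal transcription factors are all higher. Among these 8, Zic2, Zic4 and Zic5 passed the filter on low counts only through the Cldn11-positive cells, so their part of the bar is a description.

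The members themselves were then split by Cldn11. Those with at least 1 UMI of Cldn11, 323, 427, 246 and 169 cells, were compared with the 197, 320, 229 and 165 cells chosen by Aldh1a2 and Rarb alone, with the same edgeR test. Their median depths were 9246, 5796, 6667.5 and 12940 UMIs against 9436, 5812, 5923 and 12290. Of 11609 genes, 197 were higher in the Cldn11-positive cells (1.7%) and 156 lower (1.34%). The split uses a gene of the rule: a Cldn11-negative member had to carry both Aldh1a2 and Rarb, while a Cldn11-positive one needed only 1 of them. The called counts were 94 and 84 without WT 1 and 93 and 95 without WT 2, so those captures carried many of the calls. DESeq2 called 81 higher and 70 lower.

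All 8 tested meningeal transcription factors were higher in the Cldn11-positive members. Of these, Zic2, Zic4 and Zic5 passed the filter on low counts only through the Cldn11-positive side, so their values are a description. The other 5 reached it on both sides. Zic1 had 67.9, 70.6, 63.0 and 19.4 CPM in them and 8.17, 7.25, 9.28 and 5.52 in the Cldn11-negative ones (2.83 ± 0.19, adjusted p = 3.24e-06). Zic2 had 51.7, 38.2, 43.2 and 17.6 CPM against 2.40, 7.73, 3.71 and 1.38 (3.26 ± 0.26, adjusted p = 1.52e-05). Neither gene overlapped, and their levels in Cldn11-negative members were of the size seen in other mesenchyme. Zic4 (3.43 ± 0.39), Zic5 (3.34 ± 0.41), Tbx18 (1.95 ± 0.33), Foxd1 (1.24 ± 0.13), Foxc2 (1.01 ± 0.15) and Foxc1 (0.83 ± 0.12) made up the rest. Foxc1 was thus high on both sides of the split, at 139.9 ± 39.1 and 80.8 ± 37.6 CPM.

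Layer genes followed in part. Of 7 arachnoid genes tested, 4 were higher (Slc22a6, Ptgds, Wnt6 and Nnat), and 3 of 6 dural genes (Fxyd5, Foxp1 and Ccn3). The arachnoid count was 2 without WT 1, 1 without WT 2 and 2 with DESeq2. Of 7 pial genes, 1 was higher: Slc6a13, with 103, 19.8, 4.69 and 12.8 CPM against 4.81, 0.483, 0.619 and 0.460 (4.41 ± 0.26, adjusted p = 1.40e-06). It was not called with cells chosen after thinning. Slc22a6 had 253 UMIs in Cldn11-positive and 6 in Cldn11-negative members. Ptgds had 291 and 2 UMIs and was not called without WT 1 or without WT 2. Slc22a6, Ptgds, Wnt6 and Slc6a13 passed the filter on low counts only through the Cldn11-positive side, so the arachnoid and pial counts are a description and support nothing. The same holds for Gjb2, with 211 and 5 UMIs, and Gjb6, with 292 and 14. Gja1, which reached the filter on both sides, was higher without overlap (1.50 ± 0.11), as was Cxadr (1.52 ± 0.19), an adhesion protein of junctions.

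Genes of retinoic acid uptake, synthesis, breakdown and reception are given without a reading, since the choice of cells required both retinoic acid markers on the Cldn11-negative side alone. Of 15 tested, edgeR called 0 higher and 0 lower, beside 3.04% of all genes in either direction, and DESeq2 likewise called 0. At an unadjusted p below 0.05, edgeR had 6 of the 8 genes of synthesis and uptake, 0 of 1 of breakdown and 3 of 6 receptors, beside 12.3% of all genes. Stra6 stood at 37.7 ± 4.93 and 29.5 ± 7.17 CPM (0.36 ± 0.13, adjusted p = 0.232) and Nr2f2 at 217 ± 99.4 and 195 ± 94.7 (0.16 ± 0.07, adjusted p = 0.402). Aldh1a3 leaned the other way, at 32.9 ± 4.43 and 56.0 ± 28.9 CPM (-0.68 ± 0.19, adjusted p = 0.0729). It was called lower without WT 1 and without WT 5.

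**Figure D3:**
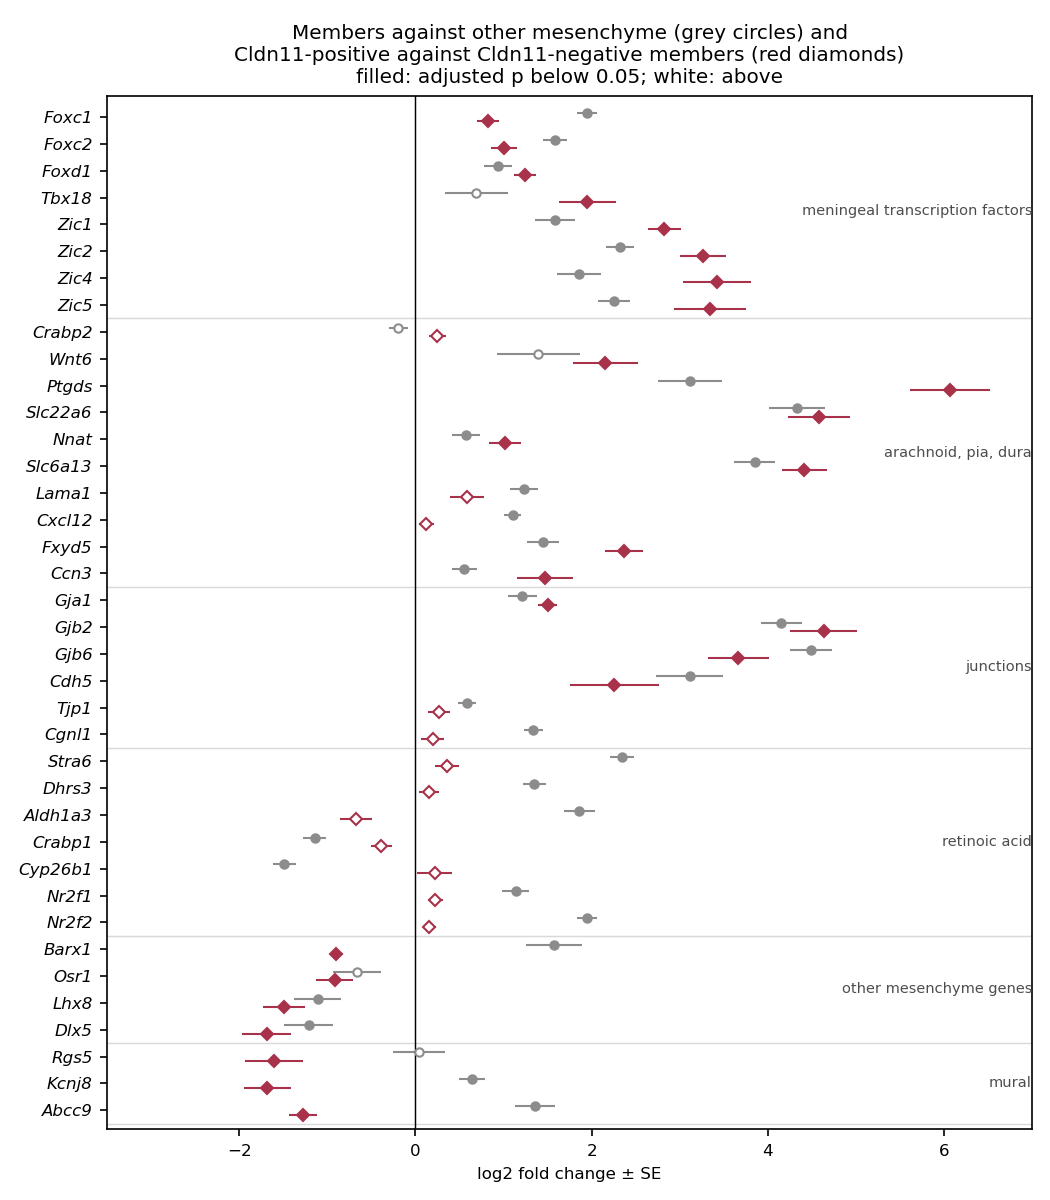
Log2 fold change ± SE on the horizontal axis for single genes, in members against other mesenchyme (grey circles) and in Cldn11-positive against Cldn11-negative members (red diamonds), filled where the adjusted p was below 0.05. The 4 Zic genes shown, Slc22a6, Slc6a13, Gjb2 and Gjb6 lie to the right of 0 in both comparisons and are filled in both. In the Cldn11 split all of these but Zic1 passed the filter on low counts only through the Cldn11-positive cells. Barx1 changes side.

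Pdzrn4 was lower in Cldn11-positive cells by 1.54 ± 0.19 and the imprinted gene Dlk1 by 1.18 ± 0.12 on the log2 scale. Of 19 nasal mesenchyme markers, Barx1 (-0.90 ± 0.08), Osr1, Lhx8 and Dlx5 were lower, Foxp2 was higher and 14 did not pass. With cells chosen after thinning, 2 of 16 tested were lower and 0 higher. Of 7 mural markers, 4 were lower (Rgs5, Kcnj8, Abcc9 and Notch3), with Abcc9 at 10.97 ± 1.20 against 26.4 ± 1.96 CPM. Lhx8 and Rgs5 passed the filter on low counts only through the Cldn11-negative side. With cells chosen after thinning 0 of 6 tested mural markers were called lower, and 0 of 5 with the classes cleared of further genes of other cell types. Ncam2, Limch1, Cdh10, Dcc, Arhgdib and Meis1 were lower as well. On the other side, Vtn (2.75), Fxyd5 (2.37), Apoe (1.20), Trpm3 (1.15), Slc1a3 (1.05) and Dcn (0.96) rose. Of the cartilage markers, Col2a1, Col9a1 and Col9a2 were higher as well, 3 of 6, and 1 of 5 with cells chosen after thinning.

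Clustering gave a second view of how members differ among themselves, as a description without tests. Clustered directly, the 2188 cells fell into 12 sub-groups, some of them made up almost wholly of 1 library. After centring expression within each library, a step chosen once this was seen, 9 sub-groups remained, and each WT capture had cells in all of them. At the lower resolution of 0.3 the centred cells gave 5 sub-groups and at 1 they gave 12. Sub-group 2, with 379 cells, was led by Zic2, Gjb6, Gjb2, Fxyd5 and Zic5. In it, 8 of 9 meningeal transcription factors, 4 of 12 arachnoid, 4 of 7 pial and 4 of 6 dural genes were present in at least 10% of cells at 1.5 times the level of the other members, as were 3.23% of the 20376 genes with a UMI in members. These genes took part in the clustering, so the counts describe the sub-group and are no test of it. A sub-group led by Zic2 and Gjb6 with 8 of the 9 factors was also found at both other resolutions, with 343 and 298 cells. No other sub-group of the 9 had more than 1 of the 9 factors at that level. Without centring, at resolution 0.6, these factors were divided by library between 2 sub-groups. The first, with 307 cells and 0 of them from WT 1, was led by Cemip, Prdm6, Trpm3, Zic2 and Thsd7b and had 8 of the 9 factors, 4 arachnoid genes and 1 pial gene past the same level. The other, with 175 cells and 173 of them from WT 1, was led by Slc6a13, Vtn and Mfap5 and had 7 of the factors, 6 arachnoid and 6 pial genes. In sub-group 2 of the centred clustering, with its 379 cells, Zic1 was found in 52.0% of cells and in 2.99% of the other members. Foxd1 was found there in 74.9% and 15.04%, Slc6a13 in 20.1% and 1.05%, and Slc22a6 in 15.8% and 0.553%. Cldn11 was found in 82.3% of the cells of this centred sub-group 2, and Rarb in 89.7%. Aldh1a2, in 62.3%, was less frequent there than in every other centred sub-group but sub-group 7.

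Sub-group 2 made up 19.0%, 22.2%, 16.6% and 8.08% of members in WT 1, 2, 4 and 5, a mean of 16.5% ± 6.06 (SD, n = 4). It was 6.897% (4 cells) and 7.41% (4 cells) in Prokr2Cre 1 and 2. WT 5 and both Prokr2Cre libraries had the lowest shares. Foxc1 was spread more widely than Zic1, Zic2, Zic4 and Zic5: it was found in 79.2% of the cells of sub-group 2, in 58.2% of sub-group 1 and in 62.7% of sub-group 7, and in 21.99% of sub-group 8.

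The remaining sub-groups were led by genes of other kinds. Sub-group 1, the largest with 426 cells, was led by Fst, Emcn, Itgbl1 and Tfap2b and carried Barx1 in 71.4% and Nr2f2 in 79.3% of its cells, but Zic1 in 0.469%. Emcn was found in 33.6% of them and in 9.42% of the other members. Sub-group 3 (330 cells) was led by genes of cell division, with Top2a in 95.2% of cells. Sub-group 4 (274 cells) was led by Tbx3os1, Slc25a21 and Unc5d, with Pax9 in 81.8% of cells. In sub-group 5 (244 cells), Pdzrn4 and Sox6 led and Runx2, the regulator of bone formation, was found in 75.0% of cells. Sub-group 6 (219 cells) was led by Foxl2, Cdh18 and Ebf2, with Osr1 in 62.1%. It made up 1.89% of members in WT 4 and 9.91% to 18.6% in the other WT captures.

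Sub-group 7 (153 cells) was led by the cartilage genes Col9a3 and Col9a1 with Mia and had Cldn11 in 85.0% of cells, the highest share of all, but Aldh1a2 in 28.8%. Cldn11 without these Zic genes was therefore common as well: sub-groups 4 and 7 had Cldn11 in 70.8% and 85.0% of cells and Zic1 in 0% and 0.654%. Sub-group 8 (141 cells) was led by Gm31243 and Pax3, and sub-group 9 (22 cells) by the mural genes Rgs5 and Acta2.

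**Figure D4:**
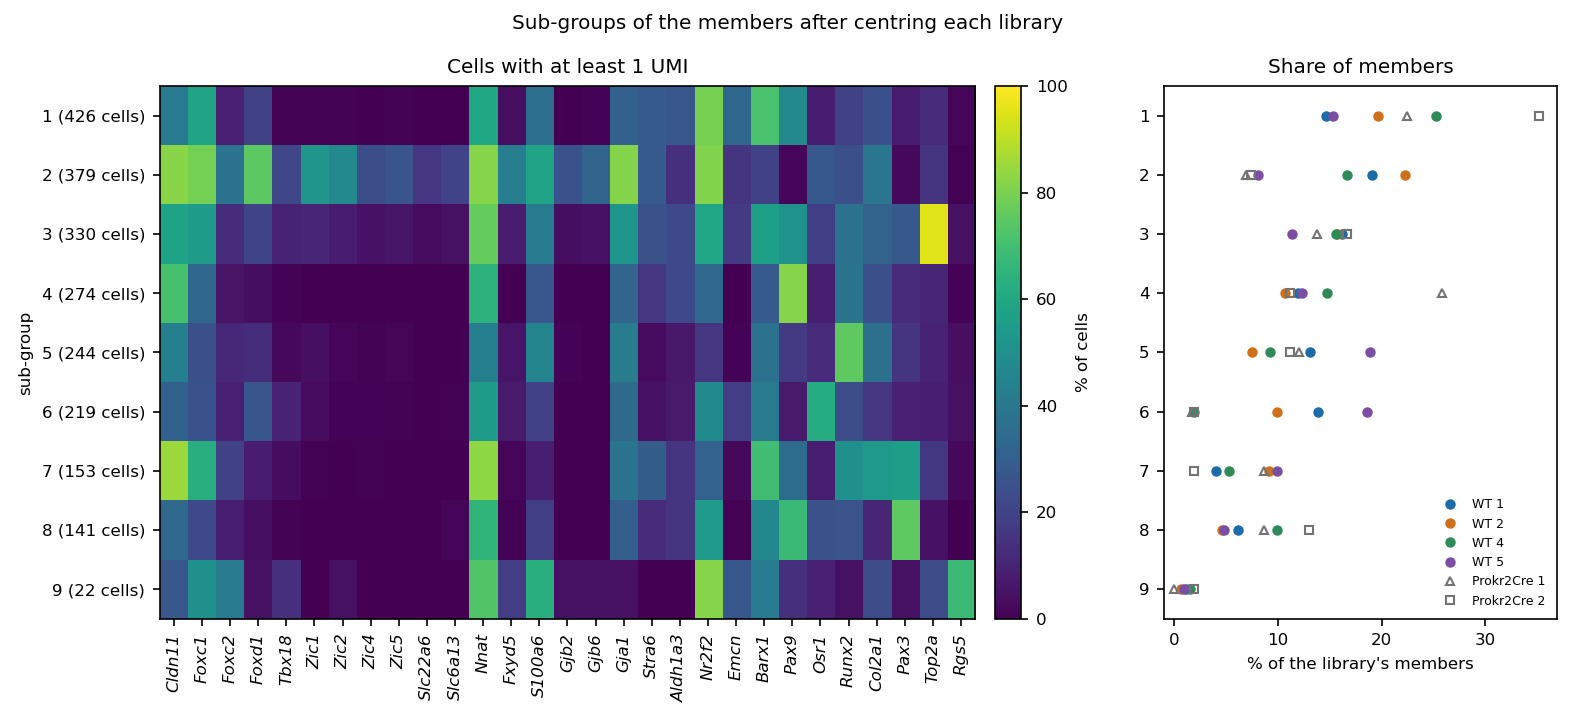
Left, percent of cells with at least 1 UMI of each gene (colour, 0 to 100%) in the 9 sub-groups of members found after centring each library; right, percent of each library's members in each sub-group, with filled circles for WT captures and open symbols for the Prokr2Cre libraries. The 4 Zic genes shown, Slc22a6, Slc6a13, Gjb2 and Gjb6 are lightest in row 2, whereas Foxc1 is at 21.99% or above in every row.

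Whether the cells look meningeal was read from these measurements. As a whole, members had higher levels than other mesenchyme of 7 of 9 meningeal transcription factors, 7 of 11 arachnoid (4 of 10, with Dpp4 lower, without WT 1), 3 of 7 pial and 5 of 6 dural genes (3 of 6 without WT 2 or WT 4). Foxd1, 1 of the 7 factors, was lower in members of both Prokr2Cre libraries. The arachnoid and pial counts include 4 and 1 genes that could be tested only through members, and are not read further. Of adhesion and gap junction genes 5 of 11 were higher and 3 lower. The 5 include Cdh5, which also could be tested only through members, so this count is not read further. Gja1 was lower in members of both Prokr2Cre libraries. All 7 dermal genes were lower. Absolute levels of the layer genes were often low, with Slc22a6 at 11.9 ± 13.4 CPM and Ptgds at 12.9 ± 21.1 (SD, n = 4). Crabp2 did not pass the test, and Slc47a1 had 3 UMIs. Zic1, Zic2, Zic4 and Zic5, the transporters Slc22a6 and Slc6a13 and the connexins Gjb2 and Gjb6 were concentrated in sub-group 2 of the centred clustering, which held 17.3% of members. The other sub-groups carried Foxc1 in part. Sub-group 3 was led by genes of cell division, sub-group 7 by cartilage genes and sub-group 9 by Rgs5, whereas sub-groups 1, 4, 5, 6 and 8 were led by the genes named above. By the marker lists alone, this sub-group 2 may be called meninges-like, whereas the members as a whole are a mixed set. The name is a description and no test, since genes of these lists took part in the clustering that formed the sub-group.

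The Prokr2Cre libraries, with 58 and 54 members, were read only for direction. Of 394 genes called higher in WT members with at least 50 CPM in the higher class, 357 were also higher in members of Prokr2Cre 1 (90.6%) and 335 in Prokr2Cre 2 (85.0%). Of 360 called lower, 313 (86.9%) and 284 (78.9%) were lower. For the Cldn11 split the shares were smaller, 69 and 68 of 102 higher genes and 44 and 48 of 71 lower ones. Several of the genes named above turned in that split. In Prokr2Cre 1, Zic1 had 1.66 CPM (1 UMI) in Cldn11-positive and 20.4 CPM (5 UMIs) in Cldn11-negative members, and Zic2 had 9.96 and 12.3 CPM. In Prokr2Cre 2 both had the direction of the WT captures, Zic1 at 15.5 CPM and Zic2 at 40.2 CPM against 0. Gja1 was not higher in the Cldn11-positive members of either library, at 81.4 against 81.7 CPM and 83.6 against 108 CPM. Fxyd5, with at most 3 UMIs in any of the 4 sets of cells, had 1.66 against 12.3 CPM and 0 against 1.86 CPM. Slc6a13 had 1.18 CPM (95% Poisson interval 0.0299 to 6.58) in members of Prokr2Cre 1 and 0 UMIs in Prokr2Cre 2. Zic2 had 10.6 and 15.1 CPM in their members against 0.951 and 3.72 in their other mesenchyme, the same direction as in WT. Besides Foxd1 and Gja1, the called genes Fxyd5, Vegfa and Edn3 were higher in members of all 4 WT captures and lower in members of both Prokr2Cre libraries. Abcb1a and Cdh5 had 0 UMIs in members of both.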

How the data were processed

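The deposited files hold UMI counts per gene and cell barcode, written by Cell Ranger 6.0.1 (WT 1), 7.0.0 (the other WT libraries) and 6.1.2 (both Prokr2Cre libraries), per the file headers. The submitters' processing notes also list Cell Ranger 4, Seurat 4.3.0 and the mm10 build. Noses were dissociated with papain and collagenase and frozen before capture, per the labels' protocols. Counting error and the spread of 4 captures limit the precision, and library totals ranged from 16773781 to 89800259 UMIs.

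Members were found by their UMIs as given in the report. The members, the gene lists and the tests were chosen with earlier results of these data known. Counts were summed per WT capture and class and tested in edgeR 4.0.16 (R 4.3.3; TMM scaling, its default filter on low counts, quasi-likelihood, capture as block, Benjamini-Hochberg, threshold 0.05). The block follows from the design, since both classes come from the same capture. Their deviations from the class means correlated at 0.683 to 0.892, and at 0.577 to 0.87 for the Cldn11 split. On simulated counts with members against other mesenchyme, the test found 41 of 50 genes changed 2-fold and 32 of 50 changed 1.5-fold, with 6 false calls of 164. For the Cldn11 split it found 43 of 50 and 28 of 50, with 2 false calls of 165.

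All genes of the lists could be named. A few called or listed genes are counted but not reported here by name. Beside these were the 15 highest and 10 lowest fold changes among called genes of at least 50 CPM with 1 direction in every capture, and the 5 leading genes of each sub-group. Genes named from further down a sub-group's leading genes were chosen after their values were seen. Sub-groups are Leiden clusters (scanpy 1.11.5, leidenalg 0.10.2; 2000 variable genes, 30 components, 20 neighbours, resolution 0.6). The automatic doublet threshold marked at most 0.333% of barcodes and was not used, and the highest doublet scores were left out only as an alternative. Alternatives also changed the tool (DESeq2 1.42.0), scaling, filters, depth and captures.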

Additional observations from a re-analysis of the deposited data

Results flagged for a closer look

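In WT 1 the summed level of glial markers in members was 102.509 CPM, far from the 26.9 to 30.4 of the other 3 WT captures. The share of members in sub-group 3, which was led by genes of cell division, was 11.3772% in WT 5 and 15.6% to 16.2% in the other WT captures. These were 2 of 46 measures examined for a sample far from the others, and chance flags about 1 in 20.

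For 9 genes the difference between members and other mesenchyme went 1 way in all 4 WT captures and the other way in both Prokr2Cre libraries. This contrast between the WT and the Prokr2Cre libraries was not tested. The WT log2 fold changes were 0.9362 for Foxd1, 1.2147 for Gja1, 1.4469 for Fxyd5, 0.8638 for Edn3, 0.2812 for Vegfa, 3.2673 for Abcb1a, 3.1131 for Cdh5, 0.3835 for Ngfr and 0.1392 for Rxra, of which Ngfr and Rxra did not pass the WT test. Fxyd5 had 4 and 1 UMIs in the Prokr2Cre members, and Abcb1a and Cdh5 had 0 in both.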

How the results depend on the processing

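The counts of called genes depended most on the replicate block. Without it, edgeR called 2 genes higher and 3 lower in members, and 0 and 0 in the Cldn11 split, with 1012 and 249 genes at an unadjusted p below 0.05. Leaving out a capture gave 679 to 1117 higher and 523 to 891 lower genes in members, and 93 to 245 and 84 to 174 in the Cldn11 split. Without the filter on low counts, 1742 genes were lower in members, and 381 and 354 genes were called in the split. The split gave 81 and 70 with DESeq2, and 129 and 96 with cells chosen after thinning. The member share of mesenchyme was 2.58% when all 3 markers were required and 5.13% after thinning, and without centring a resolution of 0.3 gave 6 sub-groups and 1 gave 17, in place of 12. With centring, added after seeing the data, the numbers were 5, 9 and 12 at resolutions of 0.3, 0.6 and 1. Of 185 named results, 133 kept direction and call without each capture in turn, 9 under every alternative, and 12 changed sign under at least 1. Kcnj8 was the 1 called gene among these, at -0.70 with all 3 markers required. The other 11 had not passed the test: Cyp26a1 was -0.47 with purer classes, Dpp4 0.62, Mgp -0.12 and Cldn4 -0.20 with all 3 markers, Cdh1 -0.57 with DESeq2, -0.57 after thinning and -0.72 with purer classes, Bgn 0.0362 after thinning, 0.0338 with matched depth and 0.0162 with WT 3 in place of WT 4, an alternative chosen after seeing the data, and Cldn7 0.01 without doublets, 0.17 with purer classes and 0.0417 with WT 3. In the split, Stra6 was -0.17 and Dhrs3 -0.24 after thinning. Without single captures, Cdh1 ranged from -1.22 to 0.72, S100a6 from -0.19 to 0.27, Bgn from -0.0378 to 0.0305, Cldn3 from -0.52 to 0.18 and Cldn4 from -0.89 to 0.80. The causes were not tested. Depth limits the scarce genes, such as Slc47a1 with 3 UMIs in WT members.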
